A study of Rattus norvegicus with 10 samples.

Results

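The 10 genes described here, Lcp1, Rac2, Nckap1l, Ptpn6, Fyb1, Sash3, Arhgdib, Cybb, Ncf4 and Laptm5, encode proteins of leucocyte signalling and of the phagocyte oxidase. They were chosen by name, as every probe set on the array whose single gene symbol is one of these 10, which gave 16 probe sets and 10 of the 14217 genes measured. The names were chosen with earlier results of these data known. A gene is represented by whichever of its probe sets was brightest on average over the 10 arrays. There were 5 genes with 1 probe set, 4 with 2 and 1 with 3, and the other probe sets are given beside the representative one.

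The RNA came from axons of rat dorsal root ganglia, which hold the cell bodies of sensory neurons. In the embryonic group there were 5 samples from embryonic day 16 (E16), and in the adult group 5 samples from adult rats of unstated age. Explants of ganglia of both stages grew for 4 days in chambers with separate compartments, and axons over 1 cm long were taken from the outer one, so all samples share a culture step and any cell that had also crossed would be sampled with the axons. Samples are labelled as biological replicates, and the labels do not state strain, sex or any pooling of animals. The submitters describe the RNA as purely axonal. Embryonic replicate 1 stood apart from the other embryonic arrays in these genes, so results are given with and without it. That array was picked on the values of these same genes. Larger differences and lower adjusted p values without it follow in part from that choice. Fewer cells of a type and less RNA per cell cannot be told apart in such material.

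The phagocyte oxidase is an enzyme that passes electrons from NADPH to oxygen and so makes the superoxide with which neutrophils and macrophages attack microbes. Its membrane core is formed by Cybb and Cyba, and in an activated cell Ncf1, Ncf4 and the small GTPase Rac2 join it from the cytosol. Rac2 also drives actin assembly through the WAVE complex, of which Nckap1l is the blood cell subunit, and Arhgdib holds small GTPases such as Rac2 in the cytosol. Ptpn6, a tyrosine phosphatase, and the adaptors Fyb1 and Sash3 act below the receptors of blood cells, while Lcp1 bundles actin filaments and Laptm5 is a membrane protein of leucocyte lysosomes. Transcription factors of the Ets family, among them PU.1, are known to drive many genes of myeloid cells.

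RefSeq promoter sequences, from 250 bases before to 50 bases after the gene start on the rat build GRCr8, were matched for 4 of the 10 genes: Ptpn6, Fyb1, Cybb and Laptm5. They are shown because PU.1 is known to act on promoters of myeloid genes, and capitals mark matches to the PU.1 core GAGGAA on either strand (TTCCTC on the strand printed). The sequences read 5′ to 3′ along each gene's own strand, and lie at chrX:16065016-16065315 (minus strand, Cybb), chr5:148371630-148371929 (plus strand, Laptm5) and chr2:57416226-57416525 (plus strand, Fyb1).
Cybb: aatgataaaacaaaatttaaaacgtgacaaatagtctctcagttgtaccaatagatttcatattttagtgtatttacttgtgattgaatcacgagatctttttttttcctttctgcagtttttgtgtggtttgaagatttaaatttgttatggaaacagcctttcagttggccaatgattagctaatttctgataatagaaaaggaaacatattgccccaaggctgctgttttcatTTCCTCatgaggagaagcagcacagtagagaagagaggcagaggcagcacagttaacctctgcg
Laptm5: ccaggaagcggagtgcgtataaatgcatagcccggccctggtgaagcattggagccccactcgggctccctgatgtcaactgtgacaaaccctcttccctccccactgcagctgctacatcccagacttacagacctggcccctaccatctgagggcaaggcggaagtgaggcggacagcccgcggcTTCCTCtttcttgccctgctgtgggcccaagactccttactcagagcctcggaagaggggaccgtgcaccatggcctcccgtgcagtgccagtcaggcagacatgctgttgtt
Fyb1: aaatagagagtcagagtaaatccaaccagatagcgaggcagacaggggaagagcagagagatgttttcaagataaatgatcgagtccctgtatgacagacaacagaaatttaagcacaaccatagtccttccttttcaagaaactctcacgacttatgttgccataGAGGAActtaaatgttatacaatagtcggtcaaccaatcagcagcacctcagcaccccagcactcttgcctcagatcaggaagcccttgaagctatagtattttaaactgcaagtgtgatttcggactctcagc
Counted from the gene start, the first base of the match lay at -14 in Cybb, -63 in Laptm5 and -84 in Fyb1. Ptpn6 had no match to these letters, so 3 of the 4 windows held the core, against 27.6% of all 33469 promoters of the same length. The longer form GAGGAAGT was in 0 of 4 and in 2.42% of all promoters, the C/EBP motif TTGCNNAA in 0 and 10.6%, and the AP-1 motif TGANTCA in 1 (Cybb) and 7.33%. The RUNX core TGTGGT was in 2 windows, Ptpn6 and Cybb, and in 17.3% of all promoters. Both strands were searched for every motif, GAGGAAGT contains GAGGAA, and a match is a description of the letters, not of a bound site.

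On the log2 scale of the arrays the representative probe set of all 10 genes was higher on average in adult than in embryonic samples, with differences from 1.65 to 5.41 and a median of 3.03, against -0.00086 over all 14217 genes. By limma 2 of the 10 passed an adjusted p of 0.05, Lcp1 and Ncf4, and 0 were lower. Over all genes 0.612% were called higher, 0.647% lower and 1.26% in either direction. At an unadjusted p under 0.05 all 10 were higher and 0 lower, against 6.28% of all genes higher. Of the 8 that did not pass after adjustment, 4 had an adjusted p between 0.05 and 0.07 (Ptpn6, Cybb, Fyb1 and Rac2) and the others reached 0.18. Adult values lay wholly above embryonic values for 4 genes (Lcp1, Ncf4, Laptm5 and Sash3), against 1.67% of all genes, and wholly below for 0, against 1.86%. Of the 16 probe sets 2 were called higher and 6 had adult values wholly above embryonic ones, against 0.374% and 1.16% of all 31042 probe sets. Without embryonic replicate 1 the count of genes that passed was 7, against 0.767% of all genes, and it was 4 without adult replicate 2 or adult replicate 5, against 0.724% and 0.682%. As embryonic replicate 1 was picked on these genes, the count of 7 is not separate support. The 10 genes were themselves chosen with earlier results of these data known. Their counts beside the shares of all genes thus describe them and are no separate support.

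**Figure D1:**
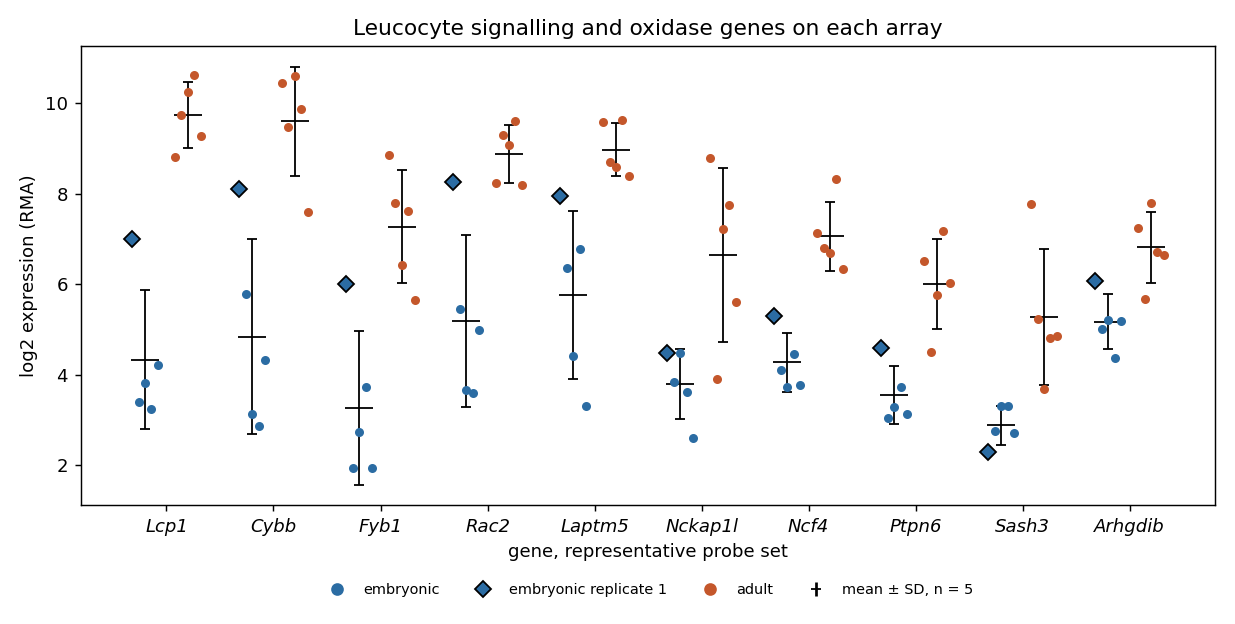
Log2 expression of the representative probe set of each of the 10 genes on each of the 10 arrays, embryonic in blue and adult in orange, with the mean and SD of 5 arrays and embryonic replicate 1 as a diamond, ordered by the size of the difference. Embryonic replicate 1 was the highest embryonic array for 8 of the 10 genes, and Rac2 and Cybb at 8.27 and 8.11 there lay among the adult values.

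Array measures that differ between the stages bear on every value here. The poly-A control transcripts, added before labelling, were at 1.89 to 2.58 on embryonic and 7.86 to 12.02 on adult arrays, so any difference in labelling cannot be told apart from stage. Differences between 3' and 5' probe sets of actin, a sign of RNA integrity, were 4.34 to 5.52 in embryonic and 3.03 to 6.04 in adult samples. The background level of an array is the 95th percentile of 98 probe sets for 81 genes of unrelated tissues, and lay between 2.85 and 4.10. Genes above it numbered 6029 to 8798 on embryonic and 5013 to 9791 on adult arrays. The SD over all probe sets was 1.96 to 2.09 on 4 arrays (embryonic replicates 1 and 5, adult replicates 4 and 5) and 1.52 to 1.71 on the other 6. Within these 4 arrays of wide spread the median difference of the 10 genes was 2.71 and 0 were called (unadjusted p under 0.05: 3). The share of all genes called was not counted for these 4 arrays, so that 0 is not read as a result about the 10 genes. Within the other 6 the median difference was 2.94 and 4 were called, Lcp1, Rac2, Cybb and Ncf4, against 0.464% of all genes. All 10 differences were positive within both sets of arrays.

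The members of the oxidase are described first. Cybb, the catalytic subunit, was at 8.11, 5.79, 3.13, 2.85 and 4.33 on embryonic arrays 1 to 5 and at 10.45, 9.48, 10.60, 9.88 and 7.60 on adult arrays 1 to 5. The groups overlapped only because embryonic replicate 1 lay above adult replicate 5. Cybb was above background on 3 of 5 embryonic and all adult arrays. The difference was 4.76 ± 0.97 on the log2 scale (SE; 9.60 ± 1.20 against 4.84 ± 2.16, SD, n = 5), with an adjusted p of 0.053, and 5.58 with an adjusted p of 0.0092 without embryonic replicate 1. The second probe set of Cybb ran over a narrower range, with 3.01 to 3.80 on embryonic and 3.12 to 6.77 on adult arrays and a difference of 1.51 ± 0.65 (adjusted p = 0.47). Adult replicates 3 and 4 were high on it, at 6.47 and 6.77, while adult replicates 2 and 5 lay at or near the embryonic values.

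Ncf4, a cytosolic regulator of the oxidase that binds a membrane phosphoinositide, rose in adult samples. It was at 5.31, 4.11, 3.72, 4.45 and 3.78 on embryonic arrays and at 7.14, 6.81, 6.68, 8.32 and 6.33 on adult arrays. All adult values were above all embryonic ones. The change was 2.78 ± 0.43 (SE), or 6.88-fold, with an adjusted p of 0.014, and its call held in all 10 omissions of 1 array, with adjusted p values from 0.0092 to 0.043. Rac2, the GTPase of the oxidase and of blood cell actin, was at 8.27, 5.46, 3.66, 3.59 and 4.98 on embryonic arrays and at 8.24, 9.30, 9.07, 9.61 and 8.19 on adult arrays. Adult values were tightly grouped and embryonic replicate 1 was the only embryonic array to reach them. Its difference was 3.69 ± 0.80 (adjusted p = 0.066), and 4.46 (adjusted p = 0.0029) without embryonic replicate 1.

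The list of the oxidase, its relatives and its regulators held 16 measured genes, of which 1 passed the test and was higher, Ncf4 itself, and 0 were lower (unadjusted p under 0.05: 6 higher and 0 lower), with a median difference of 0.76. Cyba, the partner of Cybb in the membrane, was at 4.32 ± 0.93 on embryonic and 5.29 ± 1.21 (SD) on adult arrays (difference 0.97 ± 0.62, SE; adjusted p = 0.72). Ncf1, the organiser subunit, was below the background level on all 10 arrays, so its values give no more than a bound. Nox4 and Noxo1, of the oxidases outside phagocytes, were also below it on every array. Rap1a, a small GTPase found with the oxidase core, averaged 6.76 on embryonic and 8.74 on adult arrays (1.98 ± 0.50, adjusted p = 0.12), and the kinase Prkcb, which phosphorylates the organiser, at 5.43 and 7.31 (1.88 ± 0.74, adjusted p = 0.40).

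Lcp1, the actin-bundling plastin of leucocytes, had the largest difference of the 10 genes. It was at 7.00, 3.40, 3.81, 3.23 and 4.21 on embryonic arrays and at 8.82, 9.74, 10.25, 10.62 and 9.27 on adult arrays. The groups did not overlap, though embryonic replicate 1 stood well above the next embryonic array, at 4.21. Lcp1 was above background on 2 of 5 embryonic arrays, so the size of its change rests in part on values under that level. It rose by 5.41 ± 0.68 on the log2 scale (SE; adjusted p = 0.0052), and its call held in all 10 omissions of 1 array, with changes from 5.13 to 6.08. Nckap1l, the blood cell subunit of the WAVE complex, was at 4.48, 3.83, 4.48, 3.62 and 2.60 on embryonic arrays and at 8.79, 3.91, 7.21, 7.75 and 5.59 on adult arrays. Adult replicate 2 lay among the embryonic values and adult replicate 1 was the highest, so the adult spread was wide (SD 1.92). The difference was 2.85 ± 0.82 (adjusted p = 0.18), and 3.53 without adult replicate 2 (adjusted p = 0.038). On its second probe set adult values of 3.77 to 7.28 lay above embryonic values of 3.31 to 3.60, with a difference of 1.75 ± 0.54 (adjusted p = 0.22), and adult replicate 3 was the highest there.

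Arhgdib, the cytosolic inhibitor of small GTPases in blood cells, was above background on all 10 arrays. It was at 6.06, 5.01, 5.20, 4.36 and 5.19 on embryonic arrays and at 7.25, 5.67, 7.79, 6.72 and 6.65 on adult arrays. Embryonic replicate 1 was above adult replicate 2, and the difference of 1.65 ± 0.42 (adjusted p = 0.13) was the smallest of the 10. Of 37 measured genes of the leucocyte cytoskeleton, 1 was called higher and 0 lower (unadjusted p under 0.05: 16 higher and 0 lower), with a median difference of 1.17 and 32 positive differences. The called gene was Abi1, another subunit of the WAVE complex, at 5.58 ± 0.92 (SD) and 7.90 ± 0.39, a change of 2.32 ± 0.43 (SE; adjusted p = 0.034) that lost its call in 6 of 10 omissions of 1 array: embryonic replicates 3 and 5 and adult replicates 1, 2, 3 and 4 (highest adjusted p = 0.094). Cyfip1, also of the WAVE complex, was at 6.08 ± 1.29 and 8.65 ± 0.54 (adjusted p = 0.075), and Brk1 at 8.12 ± 0.33 and 7.92 ± 1.14 (adjusted p = 0.97).

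The proteins that act below receptors followed the same direction on their representative probe sets. Ptpn6, a phosphatase that dampens signals of immune receptors, was at 4.58, 3.04, 3.28, 3.71 and 3.13 on embryonic arrays and at 6.52, 4.50, 5.77, 7.17 and 6.04 on adult arrays. Embryonic replicate 1 lay just above adult replicate 2, the only overlap, and was the only embryonic array above background, so the size of the difference rests on values under that level. The difference was 2.45 ± 0.49 (adjusted p = 0.051), and 2.71 without embryonic replicate 1 (adjusted p = 0.040). Ptpn6 passed under 9 of the 21 alternatives run, among them leaving out adult replicate 2 (adjusted p = 0.015), and its adjusted p ran up to 0.24.

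Fyb1, an adaptor that links receptor signals to integrins and actin, was at 6.01, 1.94, 2.74, 3.72 and 1.93 on embryonic arrays and at 8.86, 7.81, 6.42, 7.63 and 5.64 on adult arrays. Embryonic replicate 1 was above adult replicate 5, and the other embryonic arrays were below all adult ones and below background, which leaves the size of the difference uncertain. The difference was 4.00 ± 0.84 (adjusted p = 0.057), and 4.69 (adjusted p = 0.012) without embryonic replicate 1. The second probe set of Fyb1 did not share this difference: it was at 4.21, 2.00, 2.83, 2.15 and 2.12 and at 3.06, 2.75, 2.01, 2.70 and 1.98, below background on all adult arrays, with a difference of -0.16 ± 0.44 (95% interval -1.14 to 0.81, adjusted p = 0.97). Embryonic replicate 1 was the highest array on this probe set too.

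Sash3, an adaptor known from lymphocytes, was the one gene below background on all embryonic arrays. It was at 2.30, 2.76, 3.30, 3.29 and 2.71 on embryonic arrays and at 7.76, 5.22, 3.69, 4.82 and 4.86 on adult arrays. Adult replicate 1 stood far above the others, adult replicate 3 was below background, and embryonic replicate 1 was the lowest embryonic array. The difference of 2.40 ± 0.63 did not pass (adjusted p = 0.14), and against the background level the adult mean was at least 3.21-fold higher. A second probe set had embryonic values of 2.78 to 3.41 and adult values of 3.71 to 5.25, with adult replicate 1 again the highest (1.13 ± 0.34, adjusted p = 0.21). Set against background in the same way, its adult mean was 1.54-fold higher. The remaining one was below background on all 10 arrays.

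Laptm5, a lysosomal protein that dampens receptor signals in blood cells, was at 7.94, 6.35, 4.42, 6.77 and 3.31 on embryonic arrays and at 9.58, 8.70, 8.58, 9.64 and 8.39 on adult arrays. The groups did not overlap, and the embryonic spread (SD 1.87) was over that of the adult samples (0.59). Its difference was 3.22 ± 0.78 (adjusted p = 0.10), and 3.77 (adjusted p = 0.043) without embryonic replicate 1. The second probe set had a difference of 3.17 ± 0.64 (adjusted p = 0.052), with embryonic replicate 1 at 5.62 above adult replicate 2 at 5.05. Adult replicate 4 was the highest array on both probe sets.

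Of 42 measured genes of leucocyte receptor signalling, 3 were called higher and 0 lower (unadjusted p under 0.05: 10 higher and 1 lower), with a median difference of 0.50. Ptprc, the receptor phosphatase found on all nucleated blood cells, rose by 4.91 ± 0.59 (adjusted p = 0.0039) and the integrin chain Itgb2 by 4.62 ± 0.67 (adjusted p = 0.010), and both calls held in all 10 omissions. Ptprc was above background on 1 and Itgb2 on 2 of 5 embryonic arrays, so these sizes rest mostly on embryonic values under that level. The signalling chain Fcer1g of Fc receptors rose by 4.14 ± 0.79 (adjusted p = 0.041), but the call was lost without any 1 of 8 arrays, all but embryonic replicate 1 and adult replicate 5 (highest adjusted p = 0.11). Among known partners of Fyb1, 3 that did not pass were Lcp2, Skap2 and Skap1. Lcp2 averaged 4.19 on embryonic and 4.72 on adult arrays (adjusted p = 0.80), Skap2 6.06 and 7.58 (adjusted p = 0.62), and Skap1 2.98 and 2.93 (adjusted p = 0.99). The 1 gene of the list lower at an unadjusted p under 0.05 was Evl, at 9.26 and 6.58 (-2.67 ± 0.60, adjusted p = 0.075). The receptor-proximal kinases Syk and Lyn differed by 0.34 ± 0.48 (adjusted p = 0.93) and 1.15 ± 0.74 (adjusted p = 0.72).

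**Figure D2:**
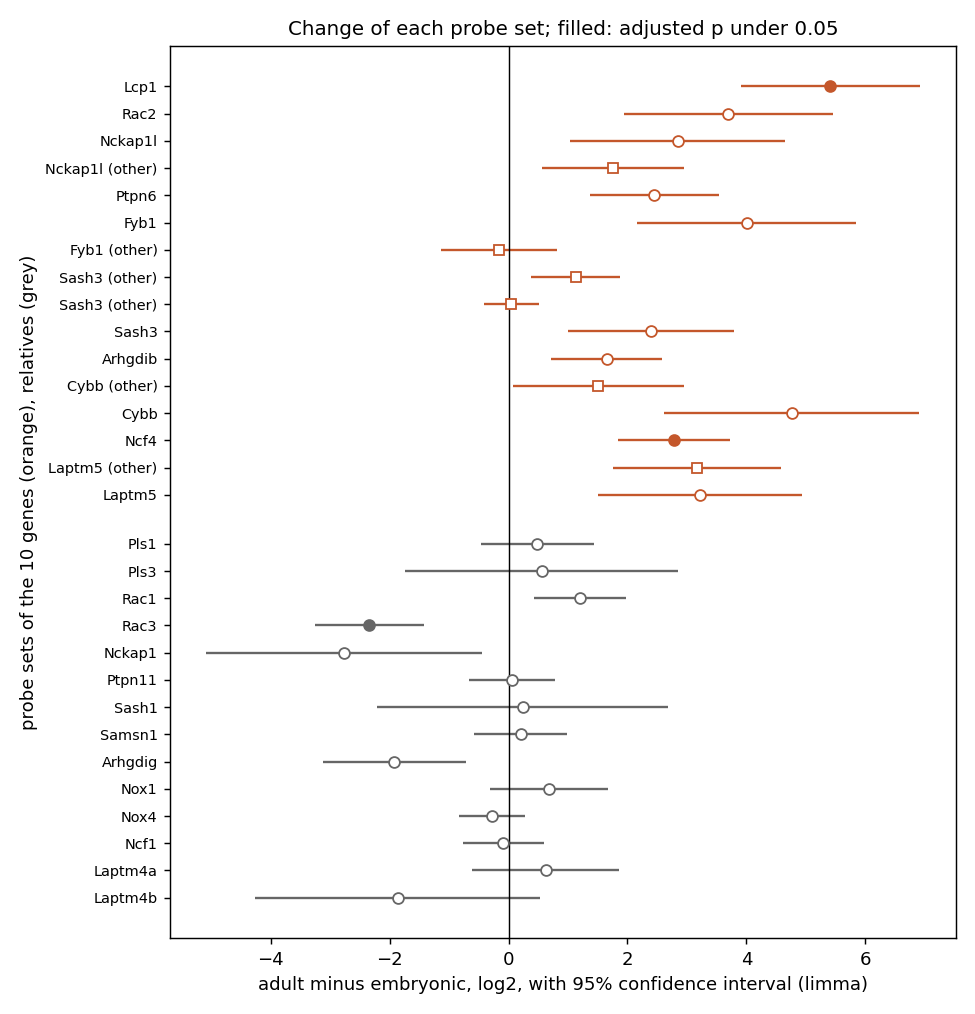
Adult minus embryonic difference of the 16 probe sets of the 10 genes (orange; squares are further probe sets) and of 14 relatives (grey) on the log2 scale, with the 95% confidence interval of limma; filled symbols passed an adjusted p of 0.05. Of the orange probe sets 15 of 16 lie above 0 and 2 are filled, and the 1 filled relative, Rac3, lies at -2.34.

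A list of genes related to the 10 had 14 measured members, most of them used in many cell types, though Ncf1 and Samsn1 among them are blood cell genes and stand on the other lists too. Of the 14, 0 were called higher and 1 lower (unadjusted p under 0.05: 1 higher and 3 lower), with a median difference of 0.13. Rac3, the neuronal relative of Rac2, fell by 2.34 on the log2 scale (6.61 ± 0.51 to 4.27 ± 0.83, SD; adjusted p = 0.030), but was not called in 6 of 10 omissions of 1 array (embryonic replicates 1, 3 and 5 and adult replicates 1, 2 and 4; highest adjusted p = 0.083). Rac1, the general form, differed by 1.20 ± 0.35 (adjusted p = 0.18), and the 3.69 of Rac2 stands beside it. Nckap1, the form of Nckap1l in other tissues, averaged 8.89 ± 0.63 on embryonic and 6.12 ± 2.61 (SD) on adult arrays (-2.77 ± 1.05, adjusted p = 0.37). Pls3, the plastin of other tissues, differed by 0.56 (95% interval -1.73 to 2.85) where Lcp1 differed by 5.41. Ptpn11, the general form of Ptpn6, differed by 0.05 (-0.67 to 0.77), and Arhgdig, a brain form of Arhgdib, by -1.92 (-3.13 to -0.71, adjusted p = 0.18). Laptm4a differed by 0.63 (-0.61 to 1.87) and Laptm4b by -1.86 (-4.26 to 0.53). Each difference between a gene and its relative was not tested.

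Markers of macrophages, tissue phagocytes that express many of the 10 genes, were read on the same arrays. Of 21 macrophage markers measured 9 were called higher and 0 lower, and none of the 21 is among the 10 genes. The sum of their levels, on the linear scale, ran from 231 to 1668 over embryonic arrays and from 5742 to 14071 over adult arrays. Lyz2 alone made up 48.4% to 64.3% of the sum on adult arrays, and without it the sum ran from 196 to 1239 and from 2049 to 6966. Among them the surface receptor Adgre1, the lysozyme Lyz2 and the Fc receptor Fcgr2b had the largest fitted changes, of 6.69 ± 0.75, 6.69 ± 0.75 and 6.04 ± 0.67. Adgre1 and Fcgr2b were above background on 1 of 5 embryonic arrays, so their sizes and their order rest on values under that level. The count was 4 without embryonic replicate 2, 3 or 5 or adult replicate 3 or 4, and 5 without adult replicate 1. Cx3cr1, Itgam, Fcgr3a, Cd163 and Clec4a, also on that list, were below background on at least 4 of 5 embryonic arrays and did not pass the test. Brighter markers failed it too. Csf1r, above background on all arrays, differed by 1.79 ± 0.63 (SE; adjusted p = 0.31). Cd68 differed by 4.24 (adjusted p = 0.066), Tyrobp by 2.06 (0.21), C1qb by 0.77 (0.76) and Trem2 by 0.05 (0.99). Of the 21 differences 20 were positive, and Cx3cr1 was at -0.54. The part of macrophage RNA in the values of the 10 genes was not tested.

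In the lists of other white blood cells no marker passed the test by limma. Of 20 T and natural killer cell markers, 0 were called, also at an unadjusted p under 0.05, and 11 were above background on no array. The sum of their levels was 134 to 240 on embryonic and 124 to 197 on adult arrays. The T cell receptor chains Cd3d and Cd3g were below background on all arrays, and Cd3e on all but 1. Of 8 B cell, 11 mast cell and 9 neutrophil and granulocyte markers, 0 were called in each list, also at an unadjusted p under 0.05, and 6, 7 and 6 of them were above background on no array. Their summed levels were 46.5 to 67.5 in embryonic and 53.1 to 114 in adult samples for B cells, 56.4 to 86.5 and 49.2 to 371 for mast cells, and 38.3 to 56.2 and 53.1 to 675 for neutrophils and granulocytes. Over adult arrays Mmp9, a protease of granules, ran from 2.72 to 9.23 on the log2 scale (adjusted p = 0.56). On adult replicate 4, where both sums were highest, Mmp9 made up 89.2% of the neutrophil sum and Hdc, the enzyme that makes histamine, 88.5% of the mast cell sum. Ms4a1 and Cd79b of B cells, S100a9 of neutrophils and Cpa3 of mast cells were below background on all arrays. Other members of these lists did exceed the background level. Hdc did so in all 5 embryonic and all 5 adult samples. Of the T and natural killer cell markers, Klrk1 did so in 4 embryonic and 5 adult samples, Zap70 in 4 and 4, and Lck in 4 and 3. Blnk of B cells exceeded that level in 3 and 4, and Camp of neutrophils in 2 and 1.

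**Figure D3:**
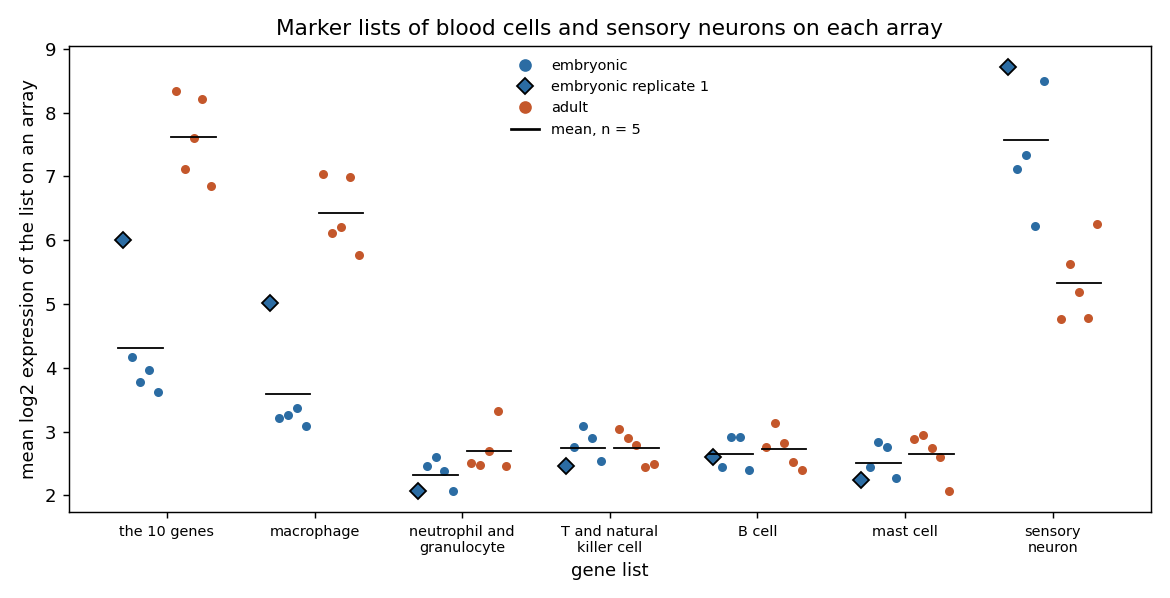
Mean log2 expression on each array of the 10 genes, of marker lists for 5 kinds of blood cell and of sensory neuron markers, embryonic in blue and adult in orange, with the mean of 5 arrays as a line. Embryonic replicate 1, the diamond, stands at 6.01 for the 10 genes and 5.02 for macrophage markers, above the other embryonic arrays, and the T, B, mast and neutrophil lists overlap between the stages.

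The labelled cell type was checked against its markers. Of 21 sensory neuron markers 17 were above background on all embryonic and 9 on all adult arrays, and 7 were called lower in adult samples and 0 higher. Mapt, the microtubule-associated protein tau, fell by 5.05, the intermediate filament Prph by 4.32 and the RNA-binding protein Elavl4 by 3.79 on the log2 scale. In adult samples Mapt was above background on 2 and Elavl4 on 1 of 5 arrays, so the sizes of their changes rest mostly on values under that level, and Prph was not called without embryonic replicate 2, 3 or 5 or adult replicate 3 or 4 (highest adjusted p = 0.063). The summed neuronal level was 5919 to 27239 on embryonic and 1598 to 7753 on adult arrays. Of 12 Schwann cell, 5 satellite glial, 12 fibroblast, 11 endothelial and 10 mural cell markers 0 were called by limma (unadjusted p under 0.05: 2, 1, 2, 2 and 0 higher and 0, 0, 1, 1 and 0 lower). Their summed levels ran from 300.3 to 644 on embryonic and 623 to 4269 on adult arrays for Schwann cells, 300.8 to 574 and 82.2 to 1946 for satellite glia, and 259 to 1093 and 157 to 4204 for fibroblasts. They were 96.6 to 155 and 119 to 275 for endothelium and 89.4 to 232 and 90.8 to 150.2 for mural cells. Of 8 red cell markers 1 was called lower, the embryonic globin Hbe1, which was above background on no adult array, and the summed level was 337 to 1553 on embryonic and 86.8 to 305 on adult arrays.

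Embryonic replicate 1 stood apart from the other embryonic arrays in these genes. It exceeded the mean of the other 4 for 9 of the 10 genes, with a median excess of 2.01 on the log2 scale, against -0.04 over all genes. The excess was 4.08 for Cybb, 3.85 for Rac2, 3.43 for Fyb1 and 3.34 for Lcp1, 0.85 for Nckap1l and -0.72 for Sash3. On this array 9 of the 10 genes were above background, against 3 to 6 on the other embryonic arrays. Macrophage markers were high there too: 15 of the 21 had their highest embryonic value on it, and Cd68 was at 8.98 against at most 5.08 on the other 4. Embryonic replicate 5, of the same wide spread, had a mean of 3.62 over the 10 genes, the lowest of all arrays. Sensory neuron markers also had their highest mean on embryonic replicate 1, at 8.71 against 6.22 to 8.50 on the other embryonic arrays. The part of macrophage RNA in the values of this array was not tested.

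**Figure D4:**
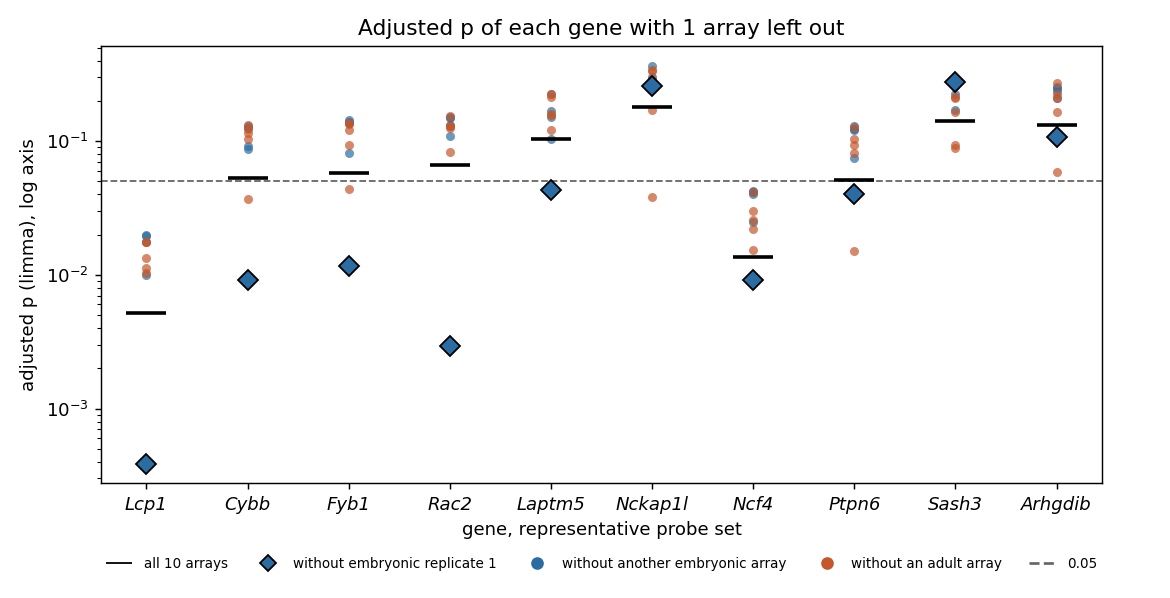
Adjusted p of limma for each of the 10 genes with all 10 arrays (bar) and with each array left out in turn (points), on a log axis, with the threshold of 0.05 dashed. Without embryonic replicate 1, the diamond, 7 genes lie under the threshold, while Lcp1 and Ncf4 lie under it in all 10 omissions.

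Adult arrays also differed among themselves. The mean of the 10 genes was highest on adult replicate 1, at 8.34, and adult replicate 4, at 8.21, and lowest on adult replicate 5, at 6.86. Adult replicate 5 was the lowest adult array for 5 genes and adult replicate 2 for 3 (Nckap1l, Ptpn6 and Arhgdib), while adult replicate 4 was the highest for 5. On all 5 adult arrays 8 of the 10 genes were above background, and on all 5 embryonic arrays 2 were, Arhgdib and Laptm5.

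The genes most like the 10 were found from the root mean square difference, over the 10 arrays, between each gene's values less its own mean and the mean profile of the 10 genes. The 6 nearest among all other genes were Lpar6, a lysophosphatidic acid receptor (0.44 on the log2 scale), Nrros, a protein known to lower oxidase levels in phagocytes (0.53), the complement chain C1qa (0.56), the G protein subunit Gngt2 (0.60), the phosphodiesterase Pde4b (0.62) and the folate receptor Folr2 (0.62). Among the 10 genes themselves Ncf4 lay nearest to the mean of the others, at 0.56, and Lcp1 farthest, at 1.44. Lpar6 was at 4.20, 2.23, 3.05, 3.20 and 2.39 on embryonic arrays and at 6.61, 5.85, 6.73, 6.39 and 5.59 on adult arrays, with embryonic replicate 1 again the highest of its group. Of these 6, Lpar6 (3.22 ± 0.40, adjusted p = 0.0047) and Pde4b (3.45 ± 0.38, adjusted p = 0.0022) were called in all 10 omissions of 1 array. Nrros (3.39 ± 0.57, adjusted p = 0.022), C1qa (3.61 ± 0.62, adjusted p = 0.024) and Gngt2 (2.64 ± 0.48, adjusted p = 0.032) were called in 3 of 10, and each lost the call without embryonic replicate 2, 3 or 5 or adult replicate 1, 3 or 4, Nrros and C1qa also without adult replicate 2, and Gngt2 also without embryonic replicate 4 (highest adjusted p = 0.069, 0.073 and 0.090). Folr2 had an adjusted p of 0.057. Lpar6 and Nrros were above background on 1 and Folr2 on 2 of 5 embryonic arrays, C1qa and Pde4b on 3, and Gngt2 on all 5. Since the measure includes the difference between stages, the likeness reflects that difference as well as the order of arrays within a stage. A higher adult level in these 6 genes was thus built into their choice. Their differences, adjusted p values and calls describe them and are no separate support.

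**Figure D5:**
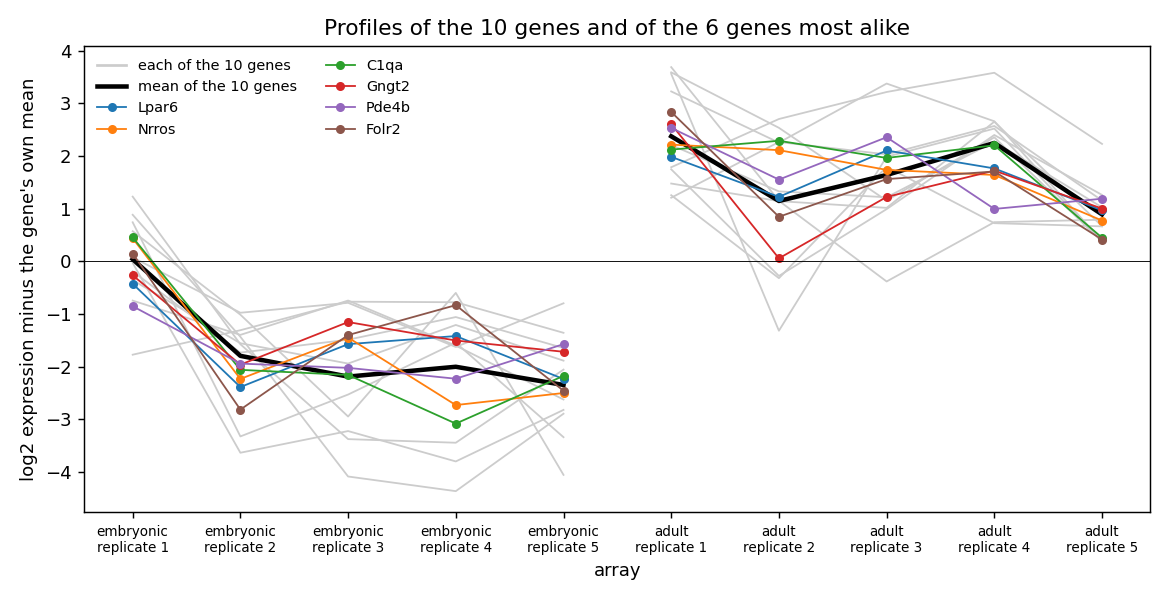
Log2 expression less each gene's own mean over 10 arrays, for the 10 genes (grey), their mean (black) and the 6 most alike genes (colours), by array; lines join the arrays of a stage only to make each gene easier to follow. The mean of the 10 genes lies near 0 on embryonic replicate 1, at 0.04, and between -2.35 and -1.80 on the other embryonic arrays.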

How the data were processed

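Expression was measured on Affymetrix whole-genome rat arrays, 5 embryonic and 5 adult. The deposited values are log2 expression per probe set made with RMA (robust multi-array average) by the authors, per the submitters' processing notes. Neither its version nor its options are stated, and the base of the logarithm was taken from the range of values. RMA compresses differences of weak probe sets, and levels of different genes are not compared. Array medians were 2.86 to 3.14. The number of arrays limits the precision, and p-values measure the spread between these samples.

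The platform annotation gives 1 symbol for 20826 probe sets, several for 436, and leaves 9780 unnamed. All 10 genes have the same symbol in a newer rat gene table. The stages were compared by limma 3.58.1 under R 4.3.3, adult minus embryonic, with lmFit and eBayes (two-sided), and adjusted p values are Benjamini-Hochberg over 31042 probe sets without 57 controls. No filter was used. The genes and lists were chosen with earlier results of these data known. Named genes were the 10, up to 3 called genes a list, relatives, and the 6 most alike; other names were chosen after their values were seen. A pair of probe sets of 1 gene is not independent. Figures used Python 3.11.15 and matplotlib 3.10.9. The fit was tested on simulated data of 31042 probe sets, with 50 changed at each size. Changes of 1, 2, 4 and 6 on the log2 scale were recovered in 6%, 46%, 84% and 100%, with 10 false calls. The simulated noise was normal and independent between arrays, so no array stood apart as embryonic replicate 1 did.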

Additional observations from a re-analysis of the deposited data

Results flagged for a closer look

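Of 36 groups of 5 arrays looked at, embryonic and adult groups counted together, 4 had an array far from the rest, where chance marks about 1 in 20. In all 4 it was embryonic replicate 1, which belongs to the embryonic groups only. The gap to the nearest array, as a share of the group's whole range, was 0.74 for Lcp1 (7.00 on that array), 0.75 for the second probe set of Laptm5 (5.62), 0.77 for the mean of the 10 genes (6.01) and 0.86 for the mean of the macrophage markers (5.02). The mean of the 10 genes contains Lcp1, so these are not independent.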

How the results depend on the processing

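All 210 differences, from 10 genes under 21 alternatives, were positive, and their median stayed between 2.62 and 3.41. The filter on dim probe sets, trend and robust variance, the replicate block and a block for array spread left every fitted difference as it was. Those differences repeat the main ones. The other alternatives reuse the same arrays, so the 210 are not separate support. The 2 genes called higher with all arrays, Lcp1 and Ncf4, were called under every alternative but the 4 arrays of wide spread (adjusted p = 0.26 and 0.34). There 0 of the 10 genes, 0 of 100 related genes and 0 of 21 macrophage markers were called (unadjusted p under 0.05: 3, 21 and 7 higher, and 8 related genes lower). The share of all genes called was not counted there. The count of the 10 genes was 7 with a filter on dim probe sets, which tests fewer probe sets (2.02% of all genes tested were higher). This filter used the mean over all 10 arrays of both stages. Genes dim in embryonic samples, such as Fyb1, could pass it through their adult values, so that count is not separate support. The count was 6 with the mean of a gene's probe sets (0.753%). It was 4 with trend and robust variance (0.591%), with the replicate block (0.513%) and within the 6 arrays of narrow spread (0.464%). It was 2 to 7 when 1 array was left out. Of 100 related genes 4 were higher and 1 lower. Higher were 2 with the replicate block and 2 to 6 with 1 array left out. Lower were 2 with the filter and with array weights, 0 with trend and robust variance, with the replicate block (unadjusted p under 0.05: 4 and 5) and 0 to 3 with 1 array left out. Of 21 macrophage markers 9 were higher, and with 1 array left out the count was 4 to 10. With the 99th percentile as the background level, 0 of the 10 genes were above it on all embryonic arrays. The replicate numbers are not stated to pair samples: same-numbered deviations correlated between -0.12 and 0.28, and 1 of 5 embryonic samples correlated best with its own number. The block was therefore left out of the main fit and stands only among the alternatives. Where a setting moved a count and no reason is given, the cause was not tested. Weak signals limit Sash3, the second probe set of Fyb1 and Ncf1, and in embryonic samples also Fyb1 and Ptpn6, above background on 1 of 5 arrays, Lcp1 on 2, and Rac2, Cybb and Nckap1l on 3.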
